A study of Mus musculus with 6 samples.

Results

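The 9 genes described here, Gria1 to Gria4 and Grik1 to Grik5, encode the AMPA and kainate subunits of the ionotropic glutamate receptors. They were chosen by name as the known subunits of both families, and all 9 were found among the 17068 genes of the count matrix, 4 for AMPA and 5 for kainate receptors. Lateral cortex was collected from female c57/bl6 mouse embryos at E12.5 and profiled by bulk RNA-seq in 6 libraries. Of these, 4 were Cre-negative controls, with Foxp1 fl/+ in controls 1, 2 and 4 and Foxp1 fl/fl in control 3. The remaining 2 were labelled Foxp1cKO and had the genotype Foxp1 fl/fl;Emx1Cre. All 6 embryos thus carried at least 1 floxed allele of Foxp1, which encodes a forkhead transcription factor. Emx1Cre recombines in progenitors of the dorsal telencephalon and the excitatory neurons born from them, so vessels, microglia, meninges and incoming interneurons in the dissected tissue keep the gene. The comparison asked whether transcripts of the receptor subunits differed between the groups by more than the controls differed among themselves.

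AMPA receptors are tetramers of the proteins GluA1 to GluA4 and carry most fast excitatory transmission in the mature cortex. Kainate receptors are tetramers of GluK1 to GluK5, in which GluK1, GluK2 and GluK3 can form channels alone while GluK4 and GluK5, the subunits of high affinity, need one of the former as a partner. Before synapses are numerous, glutamate receptors on progenitors and young neurons take part in proliferation, migration and neurite growth.

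A single codon in the pore loop, known as the Q/R site, links the members at the sequence level. In Gria2, Grik1 and Grik2 transcripts its adenosine can be edited by ADAR2, the product of Adarb1, which changes the encoded glutamine to arginine and lowers calcium entry. The 30 bases around this codon are shown for each member to make the shared position visible, read 5′ to 3′ on the coding strand of GRCm38 (mm10), with the codon of the site in capitals. Each window lies within 1 coding exon of a GENCODE M21 transcript.
Gria1, chr11:57243070-57243099, plus strand, exon 11 of 16, codon 600: tggttctcgctgggggccttcatgCAGcaa
Gria2, chr3:80706908-80706937, minus strand, exon 11 of 16, codon 607: tggttttccttgggtgcctttatgCAGcaa
Gria3, chrX:41610241-41610270, plus strand, exon 11 of 16, codon 612: tggttttccttgggtgcttttatgCAGcaa
Gria4, chr9:4464134-4464163, minus strand, exon 12 of 17, codon 608: tggttttccctgggtgcctttatgCAAcaa
Grik1, chr16:87940539-87940568, minus strand, exon 12 of 17, codon 621: tggtttggcgttggagctctcatgCAGcaa
Grik2, chr10:49244326-49244355, minus strand, exon 12 of 16, codon 621: tggtttggagttggagctctcatgCAGcaa
Grik3, chr4:125691183-125691212, plus strand, exon 12 of 16, codon 623: tggtttggaatgggctccctgatgCAGcaa
Grik4, chr9:42547620-42547649, minus strand, exon 14 of 19, codon 606: tggtttccggttggaggcttcatgCAGcaa
Grik5, chr7:25022494-25022523, minus strand, exon 15 of 20, codon 605: tggttccccgtgggtggcttcatgCAGcag
The genome encodes glutamine at this codon in all 9 members, as CAA in Gria4 and as CAG in the others. The windows of Gria2 and Gria3 shared 29 of 30 bases, as did those of Grik1 and Grik2, whereas the least alike pair, Grik3 and Grik5, shared 19. Counts per gene report the amount of transcript only. They do not report how much of it was edited, nor the choice of flip or flop exon.

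Total counts ran from 50076008 to 78346979 per library, and every member had at least 326 counts in every library, the lowest being Grik4 in control 1. Foxp1 itself was 59.7 to 79.1 CPM (counts on a common library scale, with edgeR's TMM factors) in the controls, and 83.2 and 76.8 CPM in the libraries labelled Foxp1cKO. It was therefore not lower in the latter, and since the counts cover the gene as a whole and not the floxed exons, the groups are named by label only. Markers of the labelled tissue were present throughout. The 9 radial glia markers in the table summed to 2386 to 3245 CPM per library, and Tbr1, a transcription factor of early cortical neurons, was 251 to 490.0 CPM. In bulk tissue, fewer cells of a type and less RNA per cell cannot be told apart. Embryos are the samples, and the labels do not name litters, so litter could not enter the comparison.

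No subunit passed the threshold between the groups. Each gene was tested by edgeR's quasi-likelihood method, with p-values adjusted over all genes after Benjamini and Hochberg, and fold changes carry their standard error (SE). Of the 9 members, 0 had an adjusted p under 0.05, where 0.152% of all genes did (26 of 17068, all higher in the libraries labelled Foxp1cKO). At an unadjusted p under 0.05 the count was again 0 of 9, against 13.0% of all genes. DESeq2's Wald test also gave 0 members after adjustment, against 3.36% of the genes it adjusted. Without adjustment it gave 1, Grik4, against 2376 of 17052 genes. With limma on the deposited log2-like values the counts were 0 and 0, against 0.158% and 2320 of 17068 genes. Log2 fold changes of libraries labelled Foxp1cKO over controls were above 0 for 8 members, Gria3 being the exception, against 49.3% of all genes. Their median was 0.11, beside -0.0044 for all genes. The median was 0.33 without control 3 and 0.072 without control 1. It was 0.047 without control 4, where 5 members were above 0. With 2 libraries in one group, an SD there rests on a single difference and is poorly determined.

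**Figure D1:**
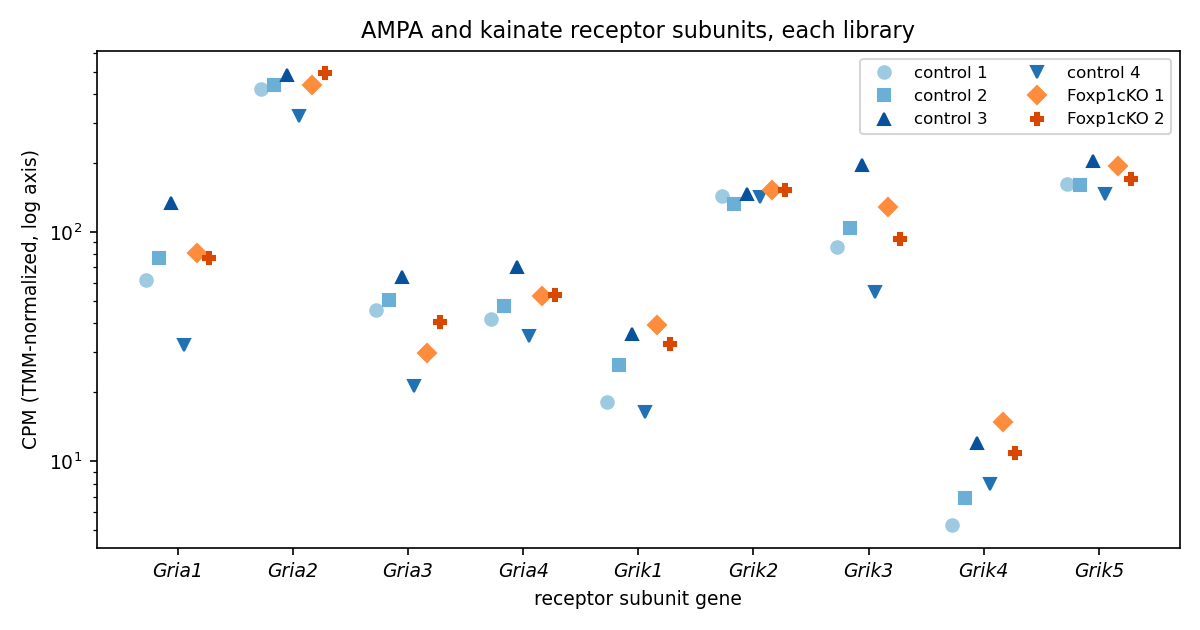
CPM on a log axis (TMM-normalized) for each of the 9 subunit genes, 1 point per library, with the 4 controls in blue and the 2 libraries labelled Foxp1cKO in orange. Control 3 is the highest control for all 9 genes and control 4 the lowest for 7, and the groups are separate for Grik2 alone.

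Gria1 (ENSMUSG00000020524.16, chr11:57011387-57330244, plus strand) encodes GluA1, the subunit best known for activity-dependent insertion at synapses. It was 61.5, 76.6, 134 and 32.1 CPM in controls 1 to 4, and 80.6 and 76.9 CPM in the libraries labelled Foxp1cKO. Both of the latter lay well inside the control range, in which the highest library was 4.18 times the lowest. Group means were 76.1 ± 43.0 CPM (SD, n = 4) and 78.8 ± 2.66 CPM (SD, n = 2), with a log2 fold change of 0.049 (SE 0.475, edgeR adjusted p = 0.978). The fold change had no stable sign. It was -0.065 without control 1, -0.21 without control 4 and 0.46 without control 3.

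Gria2 (ENSMUSG00000033981.14, chr3:80681450-80802835, minus strand) encodes GluA2, whose edited form makes AMPA receptors impermeable to calcium. Its CPM was 420.5, 436, 485 and 320.0 in controls 1 to 4, and 439 and 491 in the libraries labelled Foxp1cKO. The highest value belonged to the library labelled Foxp1cKO 2, only just above control 3, and control 4 was lowest. Means of 415 ± 69.3 CPM (SD, n = 4) and 465 ± 37.0 CPM (SD, n = 2) gave a log2 fold change of 0.16 (SE 0.159, edgeR adjusted p = 0.691). It was 0.058 without control 4, 0.062 without the library labelled Foxp1cKO 2 and 0.24 without the library labelled Foxp1cKO 1.

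Gria3 (ENSMUSG00000001986.16, chrX:41400854-41678601, plus strand), which encodes GluA3, was the only member with a negative fold change. Controls 1 to 4 had 45.7, 50.6, 63.9 and 21.4 CPM, and the libraries labelled Foxp1cKO had 29.7 and 40.7 CPM. These last values lay below controls 1, 2 and 3 but above control 4, so the groups overlapped through a single control. The log2 fold change was -0.36 (SE 0.389, edgeR adjusted p = 0.723). With single libraries left out it was -0.16 without the library labelled Foxp1cKO 1, -0.17 without control 3, -0.60 without control 4 (edgeR adjusted p = 0.184) and -0.63 without the library labelled Foxp1cKO 2.

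Gria4 (ENSMUSG00000025892.16, chr9:4417896-4796234, minus strand), which encodes GluA4, the subunit typical of early circuits and of fast-spiking interneurons, was 41.7, 47.7, 70.4 and 35.3 CPM in controls 1 to 4. The libraries labelled Foxp1cKO had 52.6 and 53.0 CPM, close to each other and inside the control range. Its log2 fold change of 0.11 (SE 0.253, edgeR adjusted p = 0.881) became 0.33 without control 3 and -0.013 without control 4.

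Among the kainate subunits that can form channels alone, Grik1 (ENSMUSG00000022935.16, chr16:87895900-88290265, minus strand), which encodes GluK1, had one of the largest fold changes of the 9 members. It was 18.2, 26.2, 35.7 and 16.4 CPM in controls 1 to 4, against 39.2 and 32.5 CPM in the libraries labelled Foxp1cKO. The first of these exceeded every control and the second was below control 3 alone. Means were 24.1 ± 8.82 CPM (SD, n = 4) and 35.9 ± 4.75 CPM (SD, n = 2), a log2 fold change of 0.57 (SE 0.302, edgeR adjusted p = 0.461). With single libraries left out it ran from 0.42 without control 4 and 0.43 without the library labelled Foxp1cKO 1 to 0.81 without control 3 (edgeR adjusted p = 0.173).

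Grik2 (ENSMUSG00000056073.16, chr10:49094833-49788766, minus strand), which encodes GluK2, had the most even levels. Controls 1 to 4 had 143, 133, 146 and 143 CPM, and the libraries labelled Foxp1cKO had 153 and 152 CPM. Both exceeded all controls, and the groups did not overlap for this member only, 1 of 9, where 24.6% of all genes had groups that did not overlap and 11.5% had them with the libraries labelled Foxp1cKO higher. The difference was nonetheless small, with means of 141 ± 5.65 CPM (SD, n = 4) and 152 ± 0.529 CPM (SD, n = 2) and a log2 fold change of 0.11 (SE 0.0700, edgeR adjusted p = 0.534). The controls differed by no more than 1.10 times.

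Grik3 (ENSMUSG00000001985.9, chr4:125490700-125714173, plus strand) encodes GluK3. It was 85.9, 104, 196 and 54.5 CPM in controls 1 to 4, a range of 3.59 times, and 129 and 93.5 CPM in the libraries labelled Foxp1cKO. Both lay inside the control range, and the group means were nearly equal at 110.0 ± 60.7 CPM (SD, n = 4) and 111 ± 24.9 CPM (SD, n = 2). The log2 fold change of 0.014 (SE 0.454, edgeR adjusted p = 0.992) took either sign when single libraries were left out. It was -0.11 without control 1, -0.013 without control 2, -0.21 without control 4, -0.23 without the library labelled Foxp1cKO 1 and 0.43 without control 3.

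Of the subunits of high affinity, Grik4 (ENSMUSG00000032017.14, chr9:42518135-42944493, minus strand), which encodes GluK4, had the largest fold change of the 9 at the lowest level. Controls 1 to 4 had 5.26, 6.90, 12.005 and 7.95 CPM, and the libraries labelled Foxp1cKO had 14.8 and 10.8 CPM. Again the first lay above every control and the second below control 3 alone. Means of 8.03 ± 2.87 CPM (SD, n = 4) and 12.8 ± 2.80 CPM (SD, n = 2) gave a log2 fold change of 0.67 (SE 0.316, edgeR adjusted p = 0.417). Leaving out single libraries gave 0.43 without the library labelled Foxp1cKO 1, 0.50 without control 1 and 0.92 without control 3 (edgeR adjusted p = 0.170).

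Grik5 (ENSMUSG00000003378.9, chr7:25009849-25072346, minus strand) encodes GluK5, the usual partner of GluK2 in the brain. Its CPM was 163, 161, 205 and 147 in controls 1 to 4, and 194 and 170.2 in the libraries labelled Foxp1cKO, both inside the control range. The log2 fold change was 0.11 (SE 0.139, edgeR adjusted p = 0.775). It ran from 0.013 without the library labelled Foxp1cKO 1 and 0.047 without control 4 to 0.20 without control 3.

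The spread among controls was then set against the group difference on the log2 CPM scale. The difference of group means was smaller than the SD of the 4 controls for 6 of 9 members, namely Gria1 to Gria4, Grik3 and Grik5, where 54.5% of all genes met the same condition. The median ratio of difference to control SD was 0.571 over the members and 0.891 over all genes. Grik1, Grik2 and Grik4 had ratios of 1.24, 1.89 and 1.46. The ratios depended on control 3: without it, 2 members, Gria1 and Gria3, remained below their control SD.

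**Figure D2:**
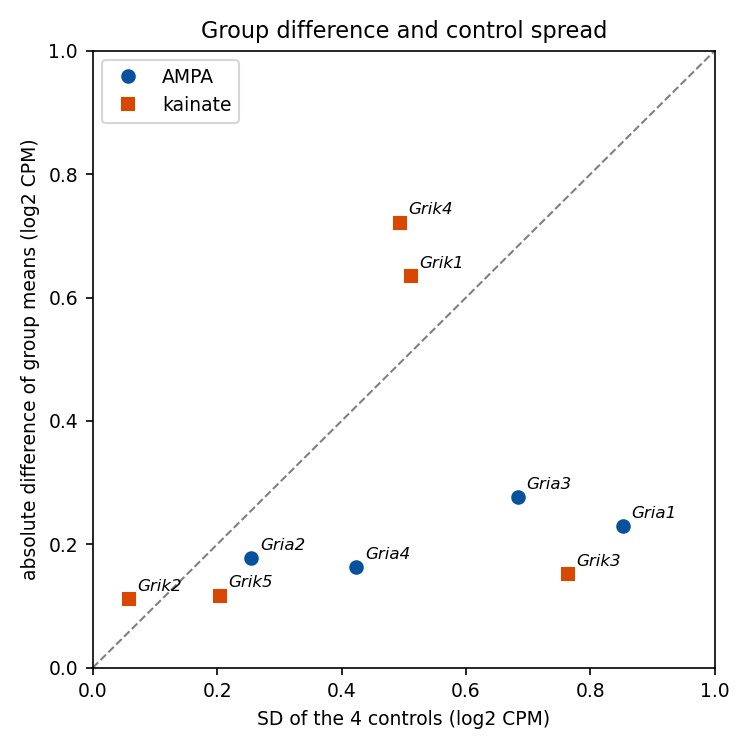
Absolute difference of the group means against the SD of the 4 controls, both in log2 CPM, for each subunit, with AMPA subunits as circles, kainate subunits as squares and a dashed line of equality. Gria1 to Gria4, Grik3 and Grik5 lie below the line, Grik1 and Grik4 lie above it, and Grik2 lies just above it near the origin.

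The controls differed from each other in these genes more than they did in most genes. Control SDs were 0.853 log2 CPM for Gria1, 0.765 for Grik3 and 0.684 for Gria3, at percentiles 98.1, 97.4 and 96.4 of the 13212 genes with at least 100 counts on average. Grik1, Grik4 and Gria4 followed at percentiles 92.5, 91.8 and 88.8, and Gria2 and Grik5 at 72.2 and 63.1. Grik2, at percentile 11.2 with an SD of 0.059, was the only member below the median of 0.156.

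The highest and the lowest control were nearly the same from gene to gene. Control 3 was the highest control for all 9 members, against 31.2% of all genes, and control 4 the lowest for 7, against 30.3% of all genes. The exceptions were Grik2, lowest in control 2, and Grik4, lowest in control 1. Both conditions held for 7 members and for 19.0% of all genes, and the counts of 9 and 7 stayed as they were with total-count scaling and on the deposited log2-like values. Both libraries labelled Foxp1cKO were inside the control range for 5 members, 1 of them was for 3 members, and neither was for Grik2.

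Among the marker lists of cell types, most neuron markers followed this order at both ends. Ventral markers did so at the upper end only, with control 4 the lowest control for 4 of 10. Mural cell markers did so at the lower end only, with control 4 the lowest control for all 5 and control 3 the highest for 0. Control 4 was also the lowest control for 3 of 6 intermediate progenitor markers. All 10 neuron markers in the table were lowest in control 4 among the controls and 7 were highest in control 3, with summed levels of 4290 (control 1), 5216 (control 2), 5700 (control 3) and 3034 CPM (control 4), and of 4085 and 4239 CPM in the libraries labelled Foxp1cKO. The others were genes of cortical excitatory neurons, Neurod6, highest in control 1, and Neurod2 and Tbr1, highest in control 2. Neurod6 was 532 CPM in control 1 and 428 CPM in control 3. All 10 markers of ventral telencephalon and interneurons were highest in control 3 among the controls, with a summed level of 990 CPM there, 339.8 to 470.0 CPM in the other controls, and 646 and 495 CPM in the libraries labelled Foxp1cKO. Of these, Nkx2-1, which specifies the medial ganglionic eminence, was 13.2 CPM in control 3 and 0.216 to 1.07 CPM elsewhere. Lhx6, a gene of the interneurons born there, was 54.6 CPM in control 3 and 6.83 to 17.7 CPM elsewhere. Of 9 radial glia markers, 0 were highest in control 3. Control 3 was also the only control of genotype Foxp1 fl/fl. The part of these differences in the receptor values was not tested.

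**Figure D3:**
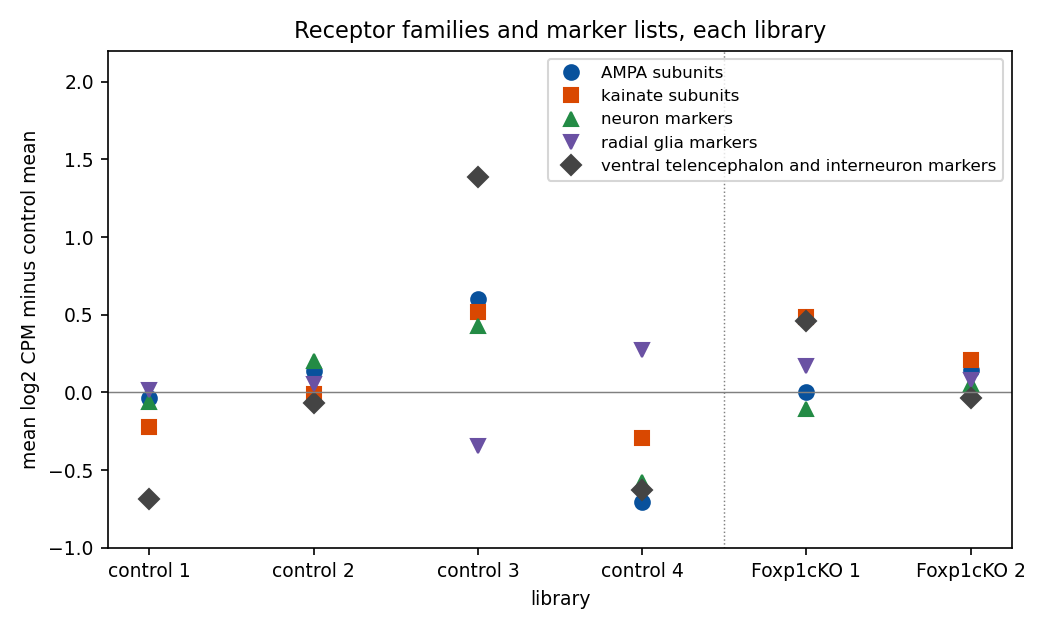
Mean log2 CPM of 5 gene lists in each library, minus that list's mean over the 4 controls, with the dotted line between controls and libraries labelled Foxp1cKO. Both receptor lists and the neuron markers are highest in control 3 and lowest in control 4 among the controls, ventral markers are highest in control 3, and radial glia markers are lowest in control 3 and highest in control 4.

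To describe the subunits against the listed neuron markers in each library, log2 CPM was also expressed minus the mean of these 10 markers, a scale chosen after the data were seen. On it the control SD became smaller for 6 of 9 members, against 15.5% of all genes, and larger for Grik2 (0.442), Grik4 (0.516) and Grik5 (0.282). The difference of group means was below the control SD for 5 members. Grik1 was the only member whose groups did not overlap, against 5.81% of all genes. Its values were -3.80, -3.54, -3.32 and -3.43 in controls 1 to 4, and -2.64 and -3.08 in the libraries labelled Foxp1cKO, a difference of 0.66 beside a control SD of 0.205. Grik2, separate on the CPM scale, overlapped here.

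Levels were compared between genes per kilobase of merged exon, a length that takes in the exons of all annotated transcripts. This length was 15548 bases for Gria2, 13246 for Grik2 and 5168 for Grik5, and the order depends on it. Before division by length, control means were 415 CPM for Gria2, 169 CPM for Grik5 and 141 CPM for Grik2. Which transcripts were expressed was not tested. In controls the order of mean CPM per kb was Grik5 (32.6 ± 4.86), Gria2 (26.7 ± 4.45), Gria1 (12.6 ± 7.11), Grik3 (12.3 ± 6.77), Grik2 (10.7 ± 0.427), Gria4 (7.74 ± 2.42), Gria3 (4.60 ± 1.80), Grik1 (3.59 ± 1.31) and Grik4 (1.35 ± 0.482; SD, n = 4). Grik5 exceeded Gria2, Gria2 exceeded Gria1, Gria4 exceeded Gria3 and Grik1 exceeded Grik4 in all 6 libraries. Neighbours that changed places were Gria1 and Grik3 (4 of 6 libraries), Grik3 and Grik2 (3 of 6), Grik2 and Gria4 (5 of 6), and Gria3 and Grik1 (3 of 6). Summed over a family, AMPA subunits had 48.5, 53.4, 71.1 and 33.7 CPM per kb in controls 1 to 4, and 53.0 and 56.9 in the libraries labelled Foxp1cKO. Kainate subunits had 55.4, 57.7, 79.8 and 49.0 CPM per kb in controls 1 to 4, and 71.6 and 61.5 in the libraries labelled Foxp1cKO. In both families the libraries labelled Foxp1cKO lay within the control range.

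The make-up of each family was computed as each subunit's share of the family's summed CPM per kb. These shares do not depend on library scaling but do depend on the merged exon lengths. Gria2 made up the largest share of AMPA transcripts in every library, at 55.8%, 52.5%, 43.9% and 61.1% in controls 1 to 4, and 53.3% and 55.6% in the libraries labelled Foxp1cKO. Gria1 ran the other way among the controls, from 15.8% in control 4 to 31.3% in control 3, with 25.2% and 22.4% in the libraries labelled Foxp1cKO. Neither share set the groups apart, and the Gria2 means differed by 1.13 percentage points, far less than the control SD of 7.23. Gria3 was 9.57%, 9.61%, 9.12% and 6.43% in controls 1 to 4, against 5.70% and 7.25% in the libraries labelled Foxp1cKO, so that control 4 again lay with the latter. Gria4 stayed between 13.6% and 16.6% in all libraries.

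Among kainate transcripts, Grik5 held 49.7% to 57.9% in controls, and 52.3% and 53.6% in the libraries labelled Foxp1cKO. Grik2 (13.8% to 22.0% in controls) and Grik3 (12.4% to 27.3%) traded places between libraries, Grik3 being larger in control 3 and Grik2 in control 4. Their values in the libraries labelled Foxp1cKO were 16.1% and 18.7% for Grik2, and 20.0% and 16.95% for Grik3, all inside those ranges. Both minor subunits stood outside theirs. Grik1 was 4.90%, 6.76%, 6.66% and 4.98% in controls 1 to 4, and 8.15% and 7.87% in the libraries labelled Foxp1cKO. Grik4 was 1.59%, 2.01%, 2.52% and 2.72% in controls 1 to 4, and 3.47% and 2.96% in the libraries labelled Foxp1cKO. The 2 shares thus did not overlap between the groups. Shares have no counterpart over all genes, but in CPM 24.6% of all genes had groups that did not overlap. A two-sided exact permutation test over libraries gave p = 0.133 for each, in a design of 4 against 2 that cannot give a p below 0.0667.

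**Figure D4:**
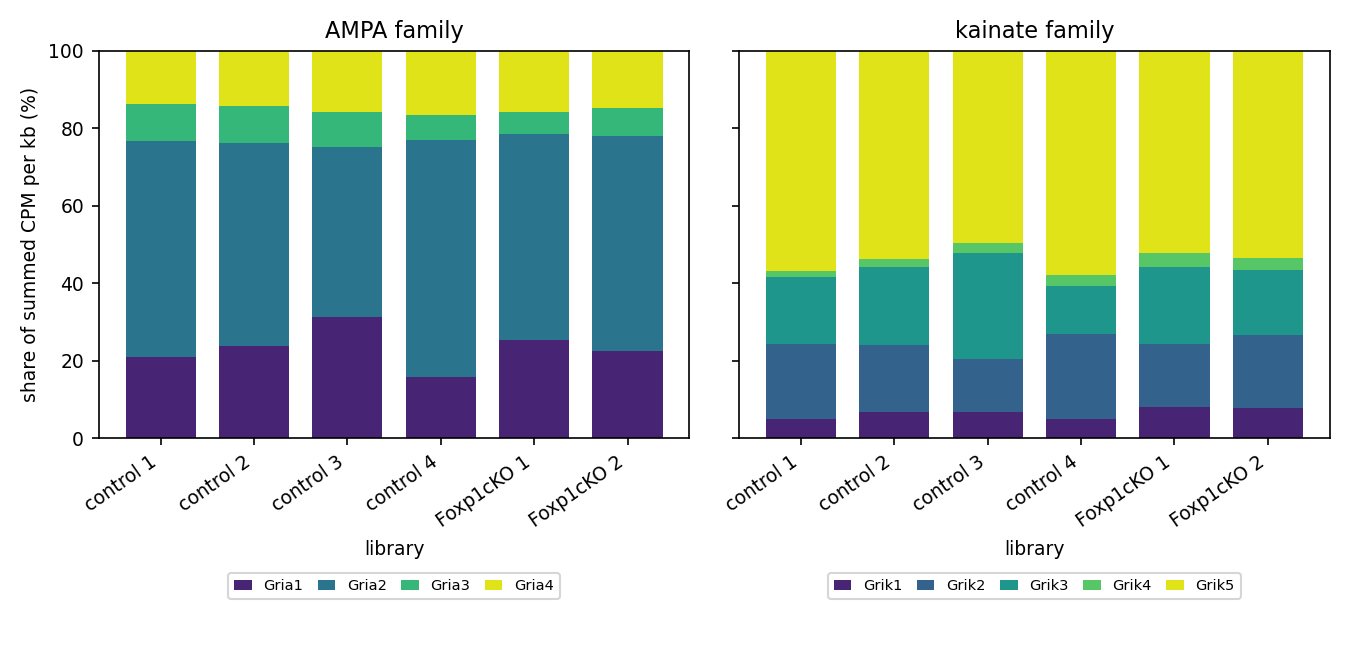
Share of each subunit in the summed CPM per kb of its family, in percent, as stacked bars from 0 to 100 for each library. Gria2 and Grik5 make up the largest parts in every library, Gria1 and Grik3 are largest in control 3, and the narrow bands of Grik1 and Grik4 are wider in the libraries labelled Foxp1cKO than in any control.

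Members were also compared by their profiles over the 6 libraries. With each log2 CPM profile centred on its own mean, the smallest root mean square distances between members were those of Grik2 and Grik5 (0.142), Gria2 and Grik5 (0.144), and Gria1 and Grik3 (0.157). Among all genes with at least 100 counts on average, the 3 nearest profiles were Cntnap3, Rnf112 and Rbfox1 for Gria1 (0.0803 for the first), and Zeb2, Kdm4b and Iqsec2 for Gria2 (0.0322). Those of Gria3 were Syt4, March4 and Cpne4 (0.0620), and those of Gria4 were Erc2, Cux2 and Pde4d (0.0311). For the kainate genes they were Tox, Rorb and Hs3st5 for Grik1 (0.0587), Inpp5a, Glt8d1 and Pias1 for Grik2 (0.0166), and Fgd3, A930017M01Rik and Faah for Grik3 (0.0749). Tmem132e, Atxn1 and Cntn5 were nearest to Grik4 (0.109), and Dip2b, Scg5 and Miat to Grik5 (0.0310). These distances share libraries and scaling factors, and a small distance is easier to reach for a gene that varies little.

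Auxiliary subunits, which set the gating and delivery of the receptors, were listed as 15 genes, all in the table. By edgeR's quasi-likelihood test 0 of them passed the adjusted threshold and 0 had an unadjusted p under 0.05, with 0 passing by DESeq2 and 0 by limma. Their log2 fold changes were above 0 for 12, with a median of 0.19. Cacng3 (0.76, SE 0.691) and Cacng5 (0.62, SE 0.263), both of the TARP family of AMPA partners, had the largest, and Cnih2 (-0.19, SE 0.238), a cornichon that slows AMPA receptor closing, and Shisa9 (-0.13, SE 0.709) the lowest. The kainate partners Neto1 and Neto2 had 0.14 (SE 0.550) and -0.087 (SE 0.108). Control 3 was the highest control for 12 of the 15 and control 4 the lowest for 11.

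Of 16 trafficking, scaffold and editing genes, 15 were in the table. Again 0 passed and 0 had an unadjusted p under 0.05 by edgeR's quasi-likelihood test, and 0 passed by DESeq2 or limma, with 9 fold changes above 0 and a median of 0.027. Adarb1, which encodes the enzyme that edits the Q/R codon shown above, was 26.2, 28.6, 31.5 and 20.5 CPM in controls 1 to 4, and 25.0 and 28.9 CPM in the libraries labelled Foxp1cKO. Both lay inside the control range, and its log2 fold change was 0.014 (SE 0.173). Adarb2, a related brain protein without known editing activity, was 4.47, 7.84, 31.6 and 7.49 CPM in controls 1 to 4, and 22.3 and 13.7 CPM in the libraries labelled Foxp1cKO. Control 3 stood above all other libraries, as it did for most receptor genes among the controls.

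Of the other ionotropic subunits, 8 of 9 listed NMDA and delta genes were in the table, with 0 past the threshold, 0 at an unadjusted p under 0.05 by edgeR, and 0 past it by DESeq2 or limma. Fold changes were above 0 for 7, with a median of 0.44. Grin1, the obligatory NMDA subunit, was 9.14, 11.7, 15.0 and 5.07 CPM in controls 1 to 4, and 12.7 and 17.05 CPM in the libraries labelled Foxp1cKO. Its highest value was in the library labelled Foxp1cKO 2, the other lay inside the control range, and the log2 fold change was 0.54 (SE 0.383). For 6 of the 8, control 3 was the highest control, as for the AMPA and kainate genes.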

How the data were processed

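RNA of lateral cortex at E12.5 was sequenced by the authors from TruSeq stranded libraries in 6 embryos. The authors used STAR to align reads to mm10 and HTSeq 0.9.1 to count them per gene and removed genes of low expression (versions from the submitters' processing notes). The deposited table holds whole, unnormalized counts of 17068 genes. VST values were deposited too, on a log2-like scale, from DESeq2 1.30.1. The strand setting of the counting is not given in the sources used here, and small RNA genes overlap exons of Gria2, Gria3, Gria4 and Grik4 on the same strand.

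Groups and replicate numbers came from the labels. Identifiers were matched to GENCODE M21 without their version number (17047 of 17068 found, 1442 of them under another version), another release than the authors'. In R 4.3.3, edgeR 4.0.16's quasi-likelihood test was run on all genes with TMM scaling and a model of group alone. The litter in the authors' model was not used here. Log2 CPM used a prior count of 2, and CPM per kb used the length of a gene's merged exons. A floor of 3 counts is 0.0381 to 0.0596 CPM, for counting error only. DESeq2 1.42.0, limma 3.58.1, other scalings, a minimum of 10 counts, each library left out and a replicate block were alternatives. Leaving out controls 3 and 4 together and the scale relative to neuron markers were added after the data were seen. Fits were tested on simulated data.

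The members, lists and tests were chosen with earlier results of these data known. Genes named are the 9 members, Foxp1, Adarb1, Adarb2, Grin1, the 3 nearest profiles of each member, and, of related lists, those with an unadjusted p under 0.05, the largest rises and falls, and any needed for a count of 5 or fewer. Neto1, Neto2, Tbr1, Nkx2-1 and Lhx6 were partly chosen after their values were seen, as were further endothelial and red cell markers. Pick1, Grin2c, Grm6, Tubb3, Neurod1, Sox2 and Sox10 were not analysed here. Some genes under this rule are left out of the text. Sequences were read from the GENCODE M21 transcript sequences, with GRCm38 positions from the M21 exons.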

Additional observations from a re-analysis of the deposited data

Results flagged for a closer look

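The share of Gria3 in AMPA transcripts was 6.43% in control 4, apart from 9.12% to 9.61% in the other controls. The gap to the nearest control was 0.843 of the range of the 4 controls, above the 95% critical value of 0.829 of Dixon's test. Among 20 groups of controls tested this was the only such value, and chance gives about 1 in 20. Control 4 was also the lowest control for Gria3 in CPM (21.4), for all 10 neuron markers and for all 5 mural cell markers. The part of the neuron markers in this share was not tested.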

How the results depend on the processing

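In every alternative run, 0 of the 9 subunits passed the adjusted threshold. The number of genes past it, 26, was 507 with DESeq2, 63 without controls 3 and 4, and 2 to 96 with single libraries left out. Among the related lists 1 gene, Flt1, passed. DESeq2 gave 4 (Flt1, Pecam1, Rgs5 and Hba-a1), leaving out controls 3 and 4 gave 2 (Flt1 and Hbb-y), and leaving out single libraries gave 0 to 4. With each library left out in turn, fold changes ran from -0.21 to 0.46 for Gria1, -0.013 to 0.33 for Gria4 and -0.23 to 0.43 for Grik3, on the log2 scale. The other 6 members kept their sign in all alternatives run. The number of members with a difference below their control SD, 6, ran from 2 (without control 3) to 7. Members with an unadjusted p under 0.05 by edgeR were Gria4, Grik1 and Grik4 without control 3, and Gria3 without control 4. All 4 of these had one without controls 3 and 4 and in the fit with a replicate block. Replicate numbers 3 and 4 occur in controls only. The block fit, like the run without them, thus takes its group difference from the other libraries. Of all 17068 genes, 3009 had such a p without control 3 and 3252 without control 4. The number was 3719 without both and 3027 in the block fit, against 2224 in the main fit. The cause of these shifts was not tested. The difference in share between groups ran from -2.01 to 3.74 percentage points for Gria2 and from -2.24 to 0.50 for Grik2.

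Replicate numbers 1 and 2 occur in both groups, and deviations of same-numbered libraries correlated at -0.198 and 0.0157. The 2 libraries labelled Foxp1cKO deviate from their mean in exactly opposite ways. These values therefore cannot show whether same-numbered libraries share more than a number. In the fit with a replicate block, 0 of all genes passed and 0 of the related lists, where 26 and 1 did without it, and 3027 genes had an unadjusted p under 0.05 by edgeR, against 2224.

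The lowest count of a member in a library was 326. Leaving out a library labelled Foxp1cKO leaves 1, which is then assumed to vary like the controls.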

Other observations

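Glutamate receptors that signal through G proteins and genes of glutamate release and uptake were also examined. Of 8 metabotropic receptor genes, 7 were in the table, all with a log2 fold change above 0 and a median of 0.55, and 0 passed the adjusted threshold by edgeR's quasi-likelihood test, by DESeq2 or by limma. Grm8, which encodes a presynaptic receptor, was the 1 gene with an unadjusted p under 0.05 by edgeR, where 13.0% of all genes had one. It was 1.78, 2.96, 2.77 and 3.38 CPM in controls 1 to 4, and 4.97 and 4.35 CPM in the libraries labelled Foxp1cKO. Both exceeded all controls, with a log2 fold change of 0.77 (SE 0.268).

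Of genes of glutamate release and uptake, Slc1a3, the glutamate transporter of radial glia and astrocytes, had an unadjusted p under 0.05 by edgeR and did not pass the adjusted threshold. It was 148, 188, 165 and 168 CPM in controls 1 to 4, and 195 and 237 CPM in the libraries labelled Foxp1cKO. Both of the latter lay above all controls, at a log2 fold change of 0.37 (SE 0.119). Slc17a7, a vesicular glutamate transporter, was 60.0, 55.6, 52.1 and 30.5 CPM in controls 1 to 4, and 28.7 and 39.6 CPM in the libraries labelled Foxp1cKO, where control 4 again kept the groups from separating.

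Flt1, a VEGF receptor of endothelium, was the only gene of the listed markers past the threshold, at 12.5 to 18.1 CPM in controls, and 44.6 and 54.2 CPM in the libraries labelled Foxp1cKO (log2 fold change 1.64, edgeR adjusted p = 0.0179). It did not pass without control 1, without control 2 or without either library labelled Foxp1cKO. Of the same 7 endothelial markers, Pecam1 (0.65), Kdr (0.18) and Cdh5 (0.0035) had log2 fold changes above 0. Those of Cldn5 (-0.053), Tie1 (-0.29) and Tek (-0.35) were below 0, and the median of the 7 was 0.0035. Summed red cell markers were high in control 4 as well as in both libraries labelled Foxp1cKO, at 2868, 3037 and 3365 CPM. The other controls had sums of 1009 to 1324 CPM. Most of each sum was Hbb-y, with 2340, 2454 and 2739 CPM in the same order. Hba-a1, Hba-a2 and Alas2 were likewise higher in those libraries than in the other controls. Hbb-bs and Hbb-bt were not. Hbb-bs peaked in control 1 (109 CPM) and had a log2 fold change of -0.17. Hbb-bt in control 1 (60.0 CPM) exceeded its level in Foxp1cKO 1 (53.1 CPM).

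Of the other cell type markers, 0 passed the adjusted threshold by edgeR. Those with an unadjusted p under 0.05 were, with their log2 fold changes, Rgs5 (0.61), Abcc9 (0.48) and Cspg4 (0.56) of mural cells, the last also a marker of oligodendrocyte precursors, Hba-a1 (1.11), Hbb-y (1.11) and Alas2 (1.10) of red cells, C1qa (0.81) of microglia, Ebf3 (0.41) of Cajal-Retzius cells, Btg2 (-0.35) of intermediate progenitors and Fabp7 (-0.43) of radial glia, besides Slc1a3 and Pecam1 above. All related lists together held 15 genes with such a p by edgeR, where 13.0% of all genes had one. The neuron markers had 4 of 10 fold changes above 0, with a median of -0.013, and the ventral and interneuron markers 6 of 10, with a median of 0.15. The lowest of the latter were those of Nkx2-1 (-2.23, SE 1.82) and Lhx6 (-0.62, SE 0.735), whose highest control was control 3.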
